A study of Mus musculus with 9 samples.

Results

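Expression of 10 genes of the YAP and TEAD pathway was followed in ST2 cells exposed to a Wnt ligand with or without an inhibitor of protein O-GlcNAcylation. The 10 genes were chosen by symbol from the 54532 genes of the deposited count table, in which CCN2 and CCN1 carry the older symbols Ctgf and Cyr61. They comprise the coactivators Yap1 and Wwtr1, the transcription factors Tead1 and Tead2, the target genes Ctgf, Cyr61 and Ankrd1, and the regulators Amotl2, Lats2 and Ajuba. ST2 is a wild-type mouse stromal line from bone marrow that can form osteoblasts, and it stands here for a single line. The 3 groups held 3 libraries each, all taken at 72 h: cells given vehicle (Veh), cells given recombinant human Wnt3a at 50 ng/ml (rhWnt3a), and cells given the same dose of rhWnt3a together with OSMI at 20 µM, a small-molecule inhibitor of O-GlcNAc transferase. The sample titles and the study's results name the last group rhWnt3a with OSMI, while its treatment label gives OSMI only, and the study's Methods for the RNA-seq list OSMI without naming the combination. The titles were followed here. By the titles no group was given OSMI alone. As a group name below, OSMI stands for rhWnt3a with OSMI. OSMI against vehicle therefore joins both treatments, and only OSMI against rhWnt3a differs by OSMI alone. If the label is right instead, the group differs from the rhWnt3a group by the ligand as well as by OSMI, and this could not be settled from the sources used here. The study calls its RNA replicates biological, but no label says that they came from separate cultures, so the p-values measure the spread between these libraries.

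YAP (Yap1) and its relative TAZ (Wwtr1) carry the output of the Hippo pathway. When the Hippo kinases are inactive, YAP and TAZ enter the nucleus and bind TEAD factors on DNA, which switches on genes such as Ctgf, Cyr61 and Ankrd1. The kinase LATS2 phosphorylates YAP and TAZ and holds them in the cytoplasm, angiomotin-like proteins such as AMOTL2 bind them, and the LIM protein AJUBA restrains LATS kinases. In stromal cells the pathway responds to stiffness, cell shape and actin tension, and it shares components with Wnt signalling. Messenger RNA levels of these genes do not show where YAP and TAZ proteins were or whether they were phosphorylated. In a bulk library, fewer cells of a type and less RNA per cell cannot be told apart.

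The libraries held between 16135898 and 17583945 counts, and 3 counts corresponded to between 0.170 and 0.191 CPM (counts scaled to library size with TMM factors). Of the 54532 genes, 14004 passed the filter on low counts, and all 10 members passed it. Marrow stromal markers were abundant in sum in every library, with summed FPKM (counts scaled by gene length and library total) between 917 and 2959. Most of this sum was Col1a1 and Col1a2, while Lepr and Thy1 were near 0 and Eng was low (11 to 49 counts). Markers of blood, endothelium and epithelium stayed at or below 35 summed counts. The libraries within a group were unequal. One direction of variation took up 54.8% of the spread between libraries of a group, and it placed vehicle replicate 3, rhWnt3a replicate 2 and OSMI replicates 1 and 2 on one side and the other libraries on the other. Results were therefore also computed without the library that lay apart in each group (vehicle replicate 3, rhWnt3a replicate 2 and OSMI replicate 3). This choice was made after the data were seen, and these values stand beside the results they change. It left 2 libraries a group and narrowed their spread, so p-values and calls of this fit are descriptions and not evidence. The same holds where the side of this direction, also taken from these data, was a term of the fit.

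Promoter sequences are shown for members whose levels the later results turn on: Ankrd1 and Cyr61, target genes that moved in opposite directions, Tead2, which was lower with OSMI, and Ajuba. RefSeq promoter windows on GRCm38.p6 (250 bases before to 50 after an annotated start) were found for 8 of the 10 members, in 10 windows, and Ctgf and Tead1 were not matched. The letters GGAATG, a short TEAD-type motif, were searched on both strands, so that CATTCC also counts. They lie in 8 of the 10 windows, from 7 of the 8 matched members, and 14.7% of all 32851 mouse promoter windows of the same length hold them. The members were chosen as genes of this pathway, so these shares are a description. The 250 bases before the start are written 5′ to 3′ on the strand of the gene, with these matches in capitals. The Ankrd1 stretch is chr19:36119845-36120094 (minus strand), that of Cyr61 chr3:145649986-145650235 (minus), that of Ajuba chr14:54577662-54577911 (minus) and that of Tead2 chr7:45215542-45215791 (plus).
Ankrd1: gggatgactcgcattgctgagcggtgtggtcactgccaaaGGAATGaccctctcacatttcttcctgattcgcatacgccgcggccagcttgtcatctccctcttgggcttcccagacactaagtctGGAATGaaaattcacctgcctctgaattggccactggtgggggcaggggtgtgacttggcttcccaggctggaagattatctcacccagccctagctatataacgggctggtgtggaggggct
Cyr61: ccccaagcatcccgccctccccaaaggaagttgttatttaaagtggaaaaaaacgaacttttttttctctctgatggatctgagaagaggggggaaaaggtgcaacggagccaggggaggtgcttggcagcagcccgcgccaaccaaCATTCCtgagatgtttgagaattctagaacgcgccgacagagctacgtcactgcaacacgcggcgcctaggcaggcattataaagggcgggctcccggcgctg
Ajuba: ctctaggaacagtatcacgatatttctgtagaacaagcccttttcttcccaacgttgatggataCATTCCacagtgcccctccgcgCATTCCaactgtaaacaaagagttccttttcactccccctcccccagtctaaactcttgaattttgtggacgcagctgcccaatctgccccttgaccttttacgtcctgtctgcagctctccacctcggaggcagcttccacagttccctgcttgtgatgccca
Tead2: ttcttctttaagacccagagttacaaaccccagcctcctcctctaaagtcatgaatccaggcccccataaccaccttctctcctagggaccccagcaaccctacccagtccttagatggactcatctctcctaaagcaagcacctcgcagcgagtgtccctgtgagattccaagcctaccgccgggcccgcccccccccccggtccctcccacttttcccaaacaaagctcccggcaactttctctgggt

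Counting from 0 at the annotated start, the Ankrd1 matches begin at base -210 and base -123, the Cyr61 match at -103, and the Ajuba matches at -186 and -164. The Tead2 window and a second, downstream window of Lats2 hold no match to these letters. The other matches begin at -141 in Yap1, at -65 in Amotl2 and at 4 in Lats2, and at -170 or -136 in the overlapping windows of Wwtr1, where the stretch is the same. CTTTGA, a core of the sites of the Wnt-responsive TCF and LEF factors, was found in Wwtr1 and Amotl2 and in 16.0% of all windows, and in Wwtr1 a match shares a base with the TEAD-type motif. TGANTCA, the AP-1 motif (7.81% of all windows), and the CArG box read by serum response factor (1.63%) were not found in these windows. A match of letters is a description and was not tested for binding.

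**Figure D1:**
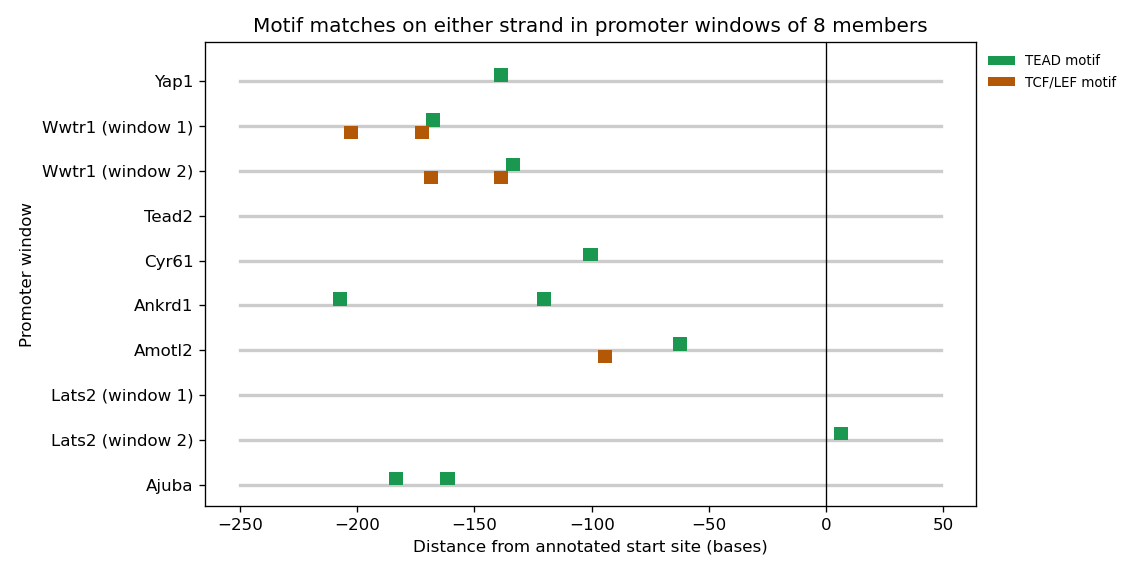
Positions of motif matches in the 10 promoter windows of 8 members, in bases from the annotated start (vertical line at 0); green bars are TEAD-type matches and brown bars TCF/LEF-type matches on either strand. Green bars stand in windows of 7 members, with a pair each in Ankrd1 and Ajuba, and the Tead2 window is empty.

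With rhWnt3a alone none of the 10 members passed the test. A gene was called when edgeR's quasi-likelihood test gave an adjusted p under 0.05 and the log2 fold change exceeded 0.5 in size, and by this rule 8.78% of the 14004 tested genes were called against vehicle (2.92% higher and 5.86% lower). At an unadjusted p under 0.05, without the fold threshold, 3 members were counted, and DESeq2 with the same thresholds also called 0 members. When OSMI was added to rhWnt3a, 2 members fell (Tead2 and Ankrd1) and none rose (2 were higher at an unadjusted p under 0.05, and DESeq2 called 2 in all), against 4.74% of all tested genes (1.69% higher and 3.05% lower). Between rhWnt3a with OSMI and vehicle, 1 member rose (Cyr61) and 3 fell (Ankrd1, Ctgf and Tead2), against 14.2% of all tested genes (4.84% higher and 9.34% lower). DESeq2 called 2 members higher and 3 lower in this comparison, and at an unadjusted p under 0.05 there were 4 higher and 3 lower. The percentages belong to the call rule, not to DESeq2 or the unadjusted p, here and in the lists below. Many other genes also had small unadjusted p-values (edgeR). The weakest member so counted ranked 2420 of 14004 with rhWnt3a (Ctgf), 2127 with OSMI against rhWnt3a and 2343 with OSMI against vehicle (both Tead1). The median log2 fold change of the members was 0.070, 0.097 and 0.16 in these comparisons, beside 0.037, -0.015 and -0.0077 over all tested genes. The comparisons share libraries and are not independent of each other.

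The count of members whose 3 libraries all lay above or all below those of the other group was 3 for rhWnt3a against vehicle, 4 for OSMI against rhWnt3a and 7 for OSMI against vehicle. Among all tested genes 26.4%, 33.7% and 38.8% were apart in this sense. Without the library that lay apart in each group, the members called became Ctgf and Ankrd1 (both lower) for rhWnt3a against vehicle.

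**Figure D2:**
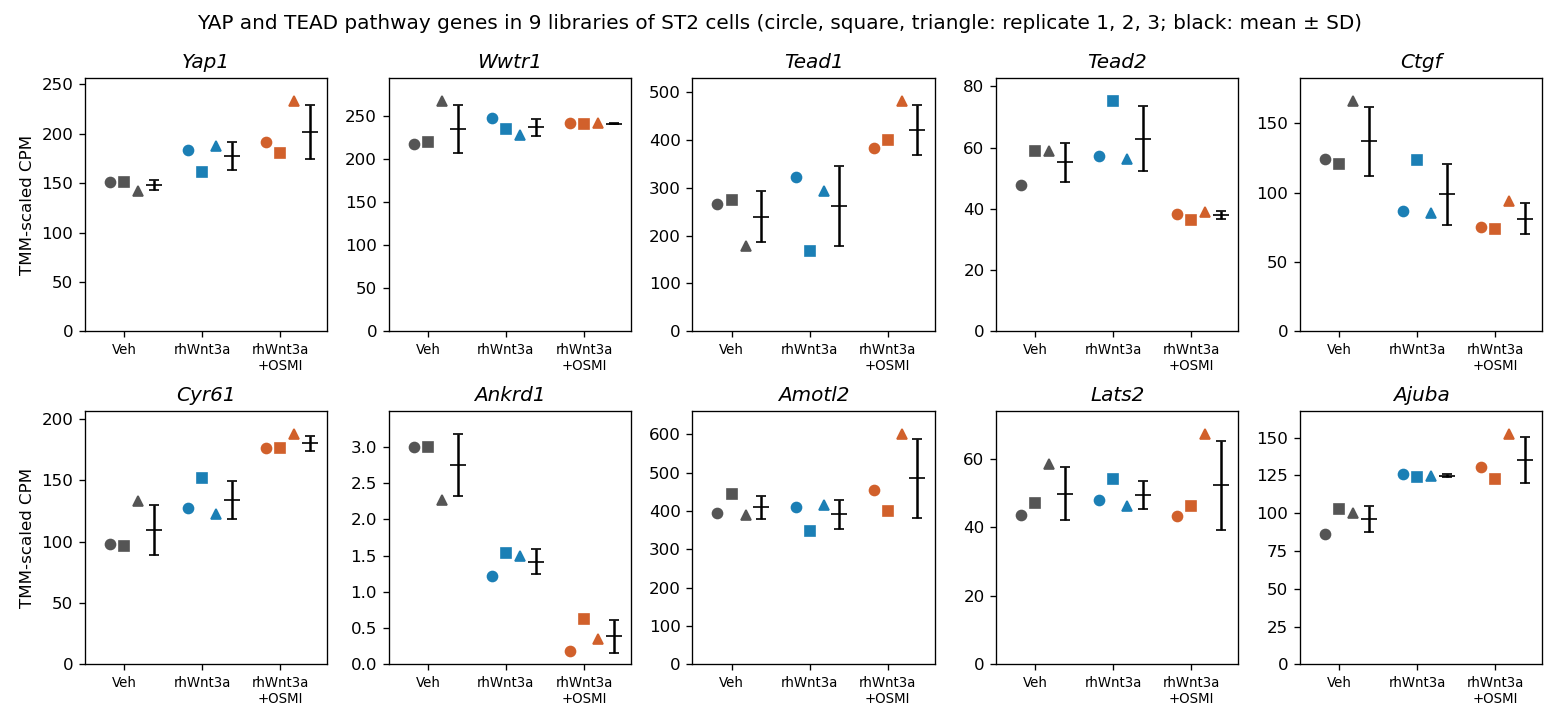
TMM-scaled CPM of each member (vertical axes, linear from 0) in the 9 libraries by group; symbols mark replicates 1 to 3 and black bars the mean ± SD of 3 libraries. Ankrd1 steps down from Veh (2.26 to 2.99 CPM) to rhWnt3a (1.22 to 1.53) to rhWnt3a with OSMI (0.181 to 0.631), Cyr61 is highest with OSMI, and Wwtr1 is level across the groups.

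The coactivators were described first. Yap1 (ENSMUSG00000053110, chr9:7931999-8004596, minus strand, GRCm38) had 151, 151 and 142 CPM with vehicle, 183, 161 and 188 with rhWnt3a, and 192, 180 and 233 with OSMI. All libraries given rhWnt3a, with or without OSMI, lay above all vehicle libraries, while the groups with and without OSMI overlapped. The log2 fold change was 0.26 ± 0.13 (SE) for rhWnt3a against vehicle (adjusted p = 0.329) and 0.45 ± 0.14 for OSMI against vehicle (adjusted p = 0.0513, edgeR). Neither was called. Without the library that lay apart in each group, the value for OSMI against vehicle was 0.26 (adjusted p = 0.0024), and that for OSMI against rhWnt3a was -0.0011 in place of 0.18.

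Wwtr1 (ENSMUSG00000027803, chr3:57455649-57575910, minus strand), which encodes TAZ, had 218, 221 and 267 CPM with vehicle, 248, 236 and 229 with rhWnt3a, and 242, 241 and 242 with OSMI. All 3 groups overlapped. The 95% interval of its log2 fold change ran from -0.27 to 0.29 for rhWnt3a against vehicle, from -0.26 to 0.30 for OSMI against rhWnt3a and from -0.24 to 0.32 for OSMI against vehicle. These intervals leave room for a change of about 0.3 in either direction on the log2 scale. Per gene length, Wwtr1 was the more abundant coactivator in every library, and the FPKM ratio of Yap1 to Wwtr1 was 0.328 ± 0.047 (SD, n = 3) with vehicle, 0.386 ± 0.036 with rhWnt3a and 0.431 ± 0.058 with OSMI. The deposited gene length of Yap1 (9257 bases) exceeds its longest transcript (5282), while those of Wwtr1 are close (4779 and 4697). The level of this ratio therefore depends on the length used.

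Tead1 and Tead2 encode DNA-binding partners of YAP and TAZ, and of these Tead2 was called lower with OSMI while Tead1 was not called. Tead2 (ENSMUSG00000030796, chr7:45215753-45233644, plus strand) had 47.8, 58.7 and 59.0 CPM with vehicle, 57.4, 75.0 and 56.4 with rhWnt3a, and 38.2, 36.4 and 39.0 with OSMI. The 3 OSMI libraries lay below all 6 others and close together. Tead2 fell with OSMI against rhWnt3a by 0.73 ± 0.15 (SE) on the log2 scale (adjusted p = 0.0252) and against vehicle by 0.54 ± 0.15 (adjusted p = 0.0360, edgeR). The first call held in 10 of 18 alternatives and was lost without rhWnt3a replicate 1, 2 or 3, OSMI replicate 1 or 2, or vehicle replicate 2 (adjusted p from 0.0595 to 0.112). It was also lost with only the 6 libraries compared and with replicate number as a block. The second held in 7 of 18 and was lost without any 1 library other than rhWnt3a replicate 2 (adjusted p from 0.0509 to 0.164), and the fold stayed between -0.61 and -0.45. The replicate block was among its other losses. Tead2 shares 27 exon bases with the opposite-strand gene Cd37, which had 16 counts in all libraries together against 7890 for Tead2.

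Tead1 (ENSMUSG00000055320, chr7:112679318-112906807, plus strand) had 266, 273 and 178 CPM with vehicle, 323, 167 and 294 with rhWnt3a, and 383, 399 and 480 with OSMI. Every OSMI library lay above the 6 others, but vehicle replicate 3 and rhWnt3a replicate 2 stood far below the rest of their groups. The log2 fold change was 0.69 ± 0.26 (SE) for OSMI against rhWnt3a (adjusted p = 0.151) and 0.81 ± 0.26 against vehicle (adjusted p = 0.0592, edgeR), and neither was called. OSMI against vehicle was called in 5 of 18 alternatives, DESeq2 among them (adjusted p = 0.0213), and without rhWnt3a replicate 2 it was called at 0.84 (adjusted p = 0.0167). Tead1 was lower on the side of this direction that held vehicle replicate 3 and rhWnt3a replicate 2, by 0.60, 0.88 and 0.30 log2 units in the 3 groups. Without the library that lay apart in each group, the log2 fold change dropped to 0.34 for OSMI against rhWnt3a (adjusted p = 0.00069) and 0.50 for OSMI against vehicle (adjusted p = 5.3e-06), both under the fold threshold. Without rhWnt3a replicate 2 alone, OSMI against rhWnt3a was 0.47 (adjusted p = 0.333). With the side as a term of the fit, OSMI against rhWnt3a was 0.93 (adjusted p = 0.00034) and OSMI against vehicle 1.04 (adjusted p = 9.9e-05). The libraries left out and the side were chosen from these data, so the p-values of these fits are descriptions.

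The relative amounts of the TEAD genes followed from these values. Per gene length, the ratio of Tead1 to Tead2 was 1.96, 1.64 and 1.06 with vehicle, 1.99, 0.786 and 1.84 with rhWnt3a, and 3.54, 3.86 and 4.34 with OSMI. All OSMI libraries exceeded the highest of the others. The members were chosen with earlier results of these data known, and Tead1 was not called. The ratio and the shares that follow are therefore given without a test. Tead1 made up 63.1% to 64.7% of the summed FPKM of Tead1, Tead2, Tead3 and Tead4 with OSMI, 36.0% to 54.8% with rhWnt3a and 37.0% to 44.6% with vehicle. The sum itself was between 33.9 and 46.0 FPKM in the 6 libraries without OSMI, and 43.6, 44.5 and 55.0 FPKM with OSMI. The level of these ratios and shares depends on the gene lengths used. The deposited lengths of Tead1 (13570 bases) and Tead2 (4788) exceed their longest transcripts (9964 and 3396).

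**Figure D3:**
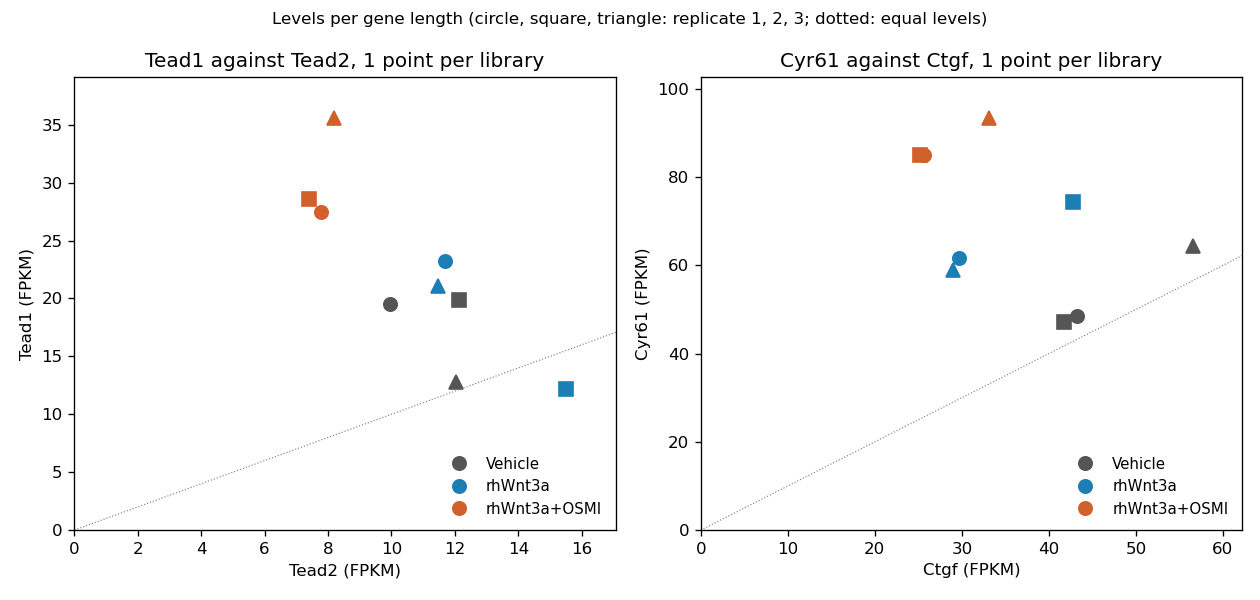
FPKM of Tead1 against Tead2 (left) and of Cyr61 against Ctgf (right), 1 point per library on linear axes from 0, colours by group and symbols by replicate, with a dotted line where both genes are equal. The OSMI libraries lie at the upper left of both panels, with Tead1 to Tead2 ratios from 3.54 to 4.34 and Cyr61 to Ctgf ratios from 2.82 to 3.38.

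Among the target genes, calls went in both directions. Ankrd1 (ENSMUSG00000024803, chr19:36111965-36119844, minus strand), which encodes an ankyrin-repeat protein known best from heart and skeletal muscle, was the least abundant member, with 49, 47 and 40 counts with vehicle, 20, 27 and 25 with rhWnt3a, and 3, 11 and 6 with OSMI. No 2 groups overlapped, and OSMI replicate 1 was at the limit of 3 counts. The log2 fold change for rhWnt3a against vehicle was -0.95 ± 0.34 (SE) and was not called (adjusted p = 0.131). Ankrd1 fell by 1.84 ± 0.40 with OSMI against rhWnt3a (adjusted p = 0.0326) and by 2.79 ± 0.39 with OSMI against vehicle, to 0.144 of the vehicle level (adjusted p = 0.00129, edgeR). The last call held in 17 of 17 alternatives (log2 fold change from -3.29 to -2.44), and the call against rhWnt3a in 8 of 17. The call against rhWnt3a was lost without rhWnt3a replicate 1, 2 or 3, OSMI replicate 1 or 3, or vehicle replicate 1 or 2 (adjusted p from 0.0594 to 0.103). It was also lost with only the 6 libraries compared and with replicate number as a block. Ankrd1 passed the count filter through the vehicle and rhWnt3a libraries, the groups in which it was higher. The alternative that asked for at least 10 counts in every library left it out. Its calls are therefore descriptions of a gene kept for its counts in those groups. Without the library that lay apart in each group, rhWnt3a against vehicle was called at -1.17 (adjusted p = 0.0175).

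Muscle markers were few, and their summed counts were lowest with OSMI, while those of rhWnt3a and vehicle overlapped. The 6 genes of the muscle list summed to between 67 and 109 counts with vehicle, 57 and 68 with rhWnt3a, and 14 and 16 with OSMI, with Myod1 at 0 in every library and Myog and Myh6 at 2 counts or fewer. In FPKM, which allows for depth and length, the sums of vehicle (1.30 to 2.44) lay above those of rhWnt3a (0.903 to 1.02). Of the 2 that were tested, Des fell with OSMI against rhWnt3a (log2 fold change -2.71 ± 0.28, adjusted p = 0.00156, edgeR) and Acta1 was called lower with rhWnt3a against vehicle, from 12, 29 and 41 counts to 3, 0 and 3. Des was not called with rhWnt3a against vehicle (0.10 ± 0.23), nor Acta1 with OSMI against rhWnt3a, where it had 2, 6 and 3 counts. Acta1 passed the count filter through the vehicle libraries, where it was highest. The part of the muscle markers in the Ankrd1 values was not tested.

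Ctgf and Cyr61 encode secreted matricellular proteins of the CCN family that are used widely as readouts of YAP and TAZ, and here they diverged. Ctgf (ENSMUSG00000019997, chr10:24595442-24598683, plus strand) had 124, 121 and 166 CPM with vehicle, 87.0, 124 and 85.3 with rhWnt3a, and 75.3, 74.0 and 94.2 with OSMI. All OSMI libraries lay below all vehicle libraries, and rhWnt3a replicate 2 lay among the vehicle libraries. Ctgf fell with OSMI against vehicle by 0.75 ± 0.19 (SE) on the log2 scale (adjusted p = 0.0269, edgeR), while it was lower by 0.47 ± 0.19 with rhWnt3a against vehicle (adjusted p = 0.195) and by 0.28 ± 0.19 with OSMI against rhWnt3a (adjusted p = 0.404), neither of them called. The call held in 11 of 18 alternatives and was lost without vehicle replicate 1, 2 or 3, rhWnt3a replicate 1, or OSMI replicate 1 or 2 (adjusted p from 0.0523 to 0.115). It was also lost with replicate number as a block. Without the library that lay apart in each group, rhWnt3a against vehicle was called at -0.54 (adjusted p = 1.9e-06). That p-value is a description, because the libraries left out were chosen from these data and the spread was narrowed. The antisense gene Gm15270 shares 826 exon bases with Ctgf, and 17 counts were given to it in all libraries together against 16044 for Ctgf. The strand setting of the counting is not given, and reads in the shared part could have been left out. The level of Ctgf beside other genes is therefore uncertain.

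Cyr61 (ENSMUSG00000028195, chr3:145646976-145649981, minus strand) had 98.3, 96.6 and 133 CPM with vehicle, 128, 152 and 122 with rhWnt3a, and 176, 176 and 187 with OSMI. The OSMI libraries lay above all others and within a narrow range, and vehicle replicate 3 reached into the range of rhWnt3a. Cyr61 rose with OSMI against vehicle by 0.72 ± 0.16 (SE) on the log2 scale, 1.65-fold (adjusted p = 0.0125, edgeR). The call held in 16 of 18 alternatives and was lost without vehicle replicate 1 (0.67, adjusted p = 0.0571) or vehicle replicate 2 (0.68, adjusted p = 0.0562). The log2 fold change was 0.29 ± 0.15 for rhWnt3a against vehicle (adjusted p = 0.351) and 0.43 ± 0.15 for OSMI against rhWnt3a (adjusted p = 0.143).

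The ratio of these CCN genes separated all 3 groups. Per gene length, Cyr61 stood to Ctgf as 1.12, 1.13 and 1.14 with vehicle, as 2.08, 1.74 and 2.03 with rhWnt3a, and as 3.32, 3.38 and 2.82 with OSMI. The vehicle libraries were nearly equal in this ratio although replicate 3 had the highest level of both genes. The means were 1.13 ± 0.0080 (SD, n = 3), 1.95 ± 0.18 and 3.17 ± 0.31. The pair was not fixed by the rule of selection but was chosen after the values had been seen, so the ratio is given without a test.

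**Figure D4:**
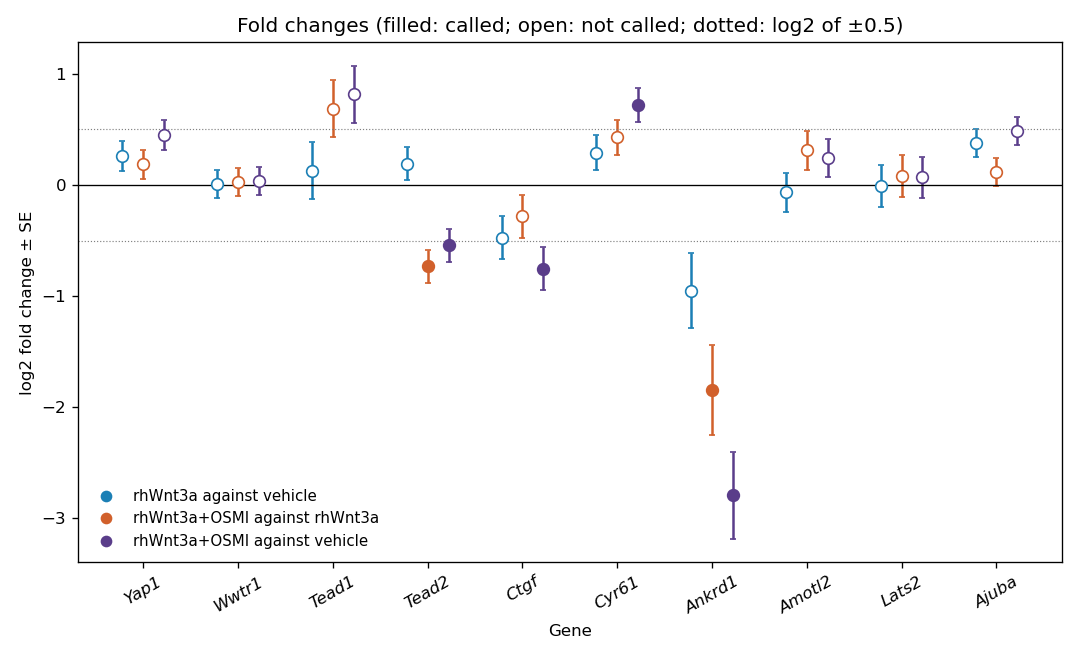
Log2 fold changes ± SE of the 10 members (horizontal axis) in the 3 comparisons, with filled symbols for called genes and dotted lines at the threshold of 0.5 in either direction. The filled symbols are Tead2 and Ankrd1 for rhWnt3a with OSMI against rhWnt3a, and Tead2, Ctgf, Ankrd1 (all below 0) and Cyr61 (above 0) against vehicle.

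Of the regulators, Ajuba came nearest to a call. Ajuba (ENSMUSG00000022178, chr14:54567472-54577558, minus strand) had 86.4, 103 and 99.9 CPM with vehicle, 126, 124 and 124 with rhWnt3a, and 130, 123 and 152 with OSMI. All 6 libraries given rhWnt3a lay above all vehicle libraries, and the libraries with and without OSMI overlapped. For OSMI against vehicle the log2 fold change of 0.49 ± 0.13 (SE) passed on p (adjusted p = 0.0286, edgeR) and fell just short of the fold threshold. It was called in 6 of 18 alternatives, among them those without rhWnt3a replicate 1 or 2, OSMI replicate 2 or vehicle replicate 3 (log2 fold change from 0.51 to 0.59). The fold change with rhWnt3a alone was 0.37 ± 0.13 (adjusted p = 0.113), and that of OSMI against rhWnt3a 0.11 ± 0.13 (adjusted p = 0.606).

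Lats2 (ENSMUSG00000021959, chr14:57689662-57758388, minus strand) had 43.6, 47.1 and 58.5 CPM with vehicle, 47.8, 54.1 and 46.1 with rhWnt3a, and 43.3, 46.1 and 67.0 with OSMI. The groups overlapped throughout, and OSMI replicate 3 was the highest library. The 95% interval of the log2 fold change was -0.43 to 0.41 for rhWnt3a against vehicle, -0.34 to 0.50 for OSMI against rhWnt3a and -0.35 to 0.49 for OSMI against vehicle. The annotated gene Gm49361 on the same strand shares 2955 exon bases with Lats2 and is near-identical over 56.9% of its longest transcript. It was given 1 count in all libraries together, and reads in the shared part could have been split or left out by the counting, so the level of Lats2 is uncertain.

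Amotl2 (ENSMUSG00000032531, chr9:102716672-102733418, plus strand) was the most abundant member by count, with 396, 444 and 389 CPM with vehicle, 411, 347 and 415 with rhWnt3a, and 455, 400 and 600 with OSMI. The groups overlapped, and the highest value was again OSMI replicate 3. The log2 fold change was -0.067 ± 0.17 (SE) for rhWnt3a against vehicle (95% interval -0.45 to 0.32), 0.31 ± 0.17 for OSMI against rhWnt3a (-0.074 to 0.70) and 0.24 ± 0.17 for OSMI against vehicle (-0.14 to 0.63). OSMI replicate 3 was the highest of its group for 8 of the 10 members, all but Wwtr1 and Ankrd1. Without it the log2 fold change of Lats2 for OSMI against vehicle was -0.15 in place of 0.068. Without the library that lay apart in each group, that of Amotl2 was 0.045 for OSMI against rhWnt3a and -0.014 for OSMI against vehicle.

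Compared per gene length, the order of mean levels with vehicle was Amotl2 (64.3 ± 4.9 FPKM, SD, n = 3), Cyr61 (53.4 ± 9.5), Wwtr1 (48.6 ± 5.2), Ctgf (47.2 ± 8.1), Ajuba (26.1 ± 2.2), Tead1 (17.4 ± 4.0), Yap1 (15.8 ± 0.71), Tead2 (11.4 ± 1.2), Lats2 (7.04 ± 1.0) and Ankrd1 (1.54 ± 0.25). The neighbours Cyr61, Wwtr1 and Ctgf lay within the SD of each other, as did Tead1 and Yap1. With rhWnt3a the order was Cyr61 (65.0 ± 8.3 FPKM), Amotl2 (60.9 ± 5.4), Wwtr1 (48.7 ± 2.0), Ctgf (33.8 ± 7.8), Ajuba (33.6 ± 0.29), Tead1 (18.8 ± 5.8), Yap1 (18.8 ± 1.4), Tead2 (12.9 ± 2.3), Lats2 (6.94 ± 0.66) and Ankrd1 (0.786 ± 0.10). Cyr61 and Amotl2, Ctgf and Ajuba, and Tead1 and Yap1 were each within the SD of their neighbour. With OSMI the order became Cyr61 (87.8 ± 4.8 FPKM), Amotl2 (76.1 ± 18), Wwtr1 (49.7 ± 1.0), Ajuba (36.5 ± 4.8), Tead1 (30.5 ± 4.4), Ctgf (28.0 ± 4.5), Yap1 (21.5 ± 3.4), Tead2 (7.79 ± 0.40), Lats2 (7.38 ± 2.0) and Ankrd1 (0.216 ± 0.12). Ctgf moved from the level of Cyr61 and Wwtr1 to that of Tead1, from which it did not differ beyond the SD. Cyr61 and Amotl2, and Tead2 and Lats2, also lay within the SD of each other with OSMI. These orders rest on the deposited gene lengths, which for several members exceed the longest transcript. For Yap1 they were 9257 and 5282 bases and for Amotl2 6289 and 4427, while for Cyr61 both were 2019. The order between genes is therefore uncertain.

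Few genes of the upstream part of the pathway were called, and few genes were called overall in the table. The shares of all tested genes called were 8.78%, 4.74% and 14.2% in the 3 comparisons. Lists of this size would hold few calls at such shares. Of 14 Hippo kinases and their activators, all tested, Wwc1, which encodes the scaffold KIBRA, fell with rhWnt3a against vehicle (log2 fold change -1.85 ± 0.28, adjusted p = 0.00223, edgeR), and the other 13 were not called. With OSMI against rhWnt3a none was called by edgeR or DESeq2, 4 were higher at an unadjusted p under 0.05, and the median log2 fold change was 0.26. With OSMI against vehicle Wwc1 was lower (-1.62 ± 0.27) and Frmd6, the relative of the fly gene Expanded, was higher (0.52 ± 0.12, adjusted p = 0.0175). The core kinases Stk3, Stk4 and Lats1 had log2 fold changes between -0.18 and 0.42 over the 3 comparisons, none of them called. None of the 9 genes of the STRIPAK phosphatase complex, which opposes the Hippo kinases, was called by edgeR or DESeq2 in any comparison, and at an unadjusted p under 0.05 the number was 0 for rhWnt3a against vehicle, 1 for OSMI against rhWnt3a and 3 for OSMI against vehicle. Of 13 Fat, Dachsous and polarity genes 7 were tested, and edgeR called Scrib alone, higher with OSMI against rhWnt3a (0.68 ± 0.13, adjusted p = 0.0200) and against vehicle (0.54 ± 0.13). In this last comparison DESeq2 called 2 genes of the list higher and 1 lower.

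Among the relatives and cofactors of TEAD 8 of 10 genes were tested. The shares of all tested genes called were 8.78%, 4.74% and 14.2% in the 3 comparisons. Tead4, a further TEAD factor, had 8.56, 8.56 and 5.91 FPKM with vehicle, 3.59, 2.21 and 3.61 with rhWnt3a, and 4.62, 4.48 and 5.23 with OSMI. It fell with rhWnt3a against vehicle (log2 fold change -1.28 ± 0.22, adjusted p = 0.00516, edgeR), whereas the log2 fold change with OSMI against rhWnt3a was 0.60 ± 0.22 (adjusted p = 0.147). Tead4 thus made up 17.1% to 19.5% of the summed TEAD FPKM with vehicle, 6.51% to 8.93% with rhWnt3a and 9.51% to 10.6% with OSMI. Amot, which encodes angiomotin, a relative of AMOTL2, rose with OSMI against vehicle (0.96 ± 0.23, adjusted p = 0.0215). Tead4 (-0.68 ± 0.22, adjusted p = 0.0620) and the TEAD cofactor gene Vgll4 (-0.70 ± 0.24, adjusted p = 0.0805) were not called by edgeR in that comparison. DESeq2 called 1 gene of the list higher and 2 lower there, and 4 were higher and 2 lower at an unadjusted p under 0.05. The median log2 fold change of this list was 0.045, 0.19 and 0.086 in the 3 comparisons.

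Other YAP and TAZ target genes also went in both directions. Of 17, 16 were tested and Igfbp3 was not. Among all tested genes 2.92% were called higher and 5.86% lower with rhWnt3a against vehicle, and 1.69% and 3.05% with OSMI against rhWnt3a. With rhWnt3a against vehicle 3 fell and none rose (3 of each sign at an unadjusted p under 0.05, and 3 called in each direction by DESeq2), with F3, the gene of tissue factor, changing most (log2 fold change -2.54 ± 0.15, adjusted p = 1.6e-05, edgeR). F3 had 2198, 2015 and 2731 counts with vehicle, 360, 505 and 353 with rhWnt3a and 544, 634 and 605 with OSMI. The others that fell were the receptor tyrosine kinase gene Axl (-0.75 ± 0.17, adjusted p = 0.0201) and the kinase gene Nuak2 (-0.93 ± 0.17, adjusted p = 0.00661). With OSMI against rhWnt3a Axl rose by 0.80 ± 0.17 (adjusted p = 0.0282) and Nt5e, which encodes the surface enzyme CD73, fell (-2.18 ± 0.25, adjusted p = 0.00208), from between 72 and 80 counts to between 14 and 22.

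With OSMI against vehicle 2 of these targets rose, Asap1 (1.45 ± 0.23, adjusted p = 0.00257, edgeR) and Crim1 (0.88 ± 0.15, adjusted p = 0.00377), and 3 fell, F3 (-2.00 ± 0.15), Nt5e (-1.97 ± 0.25) and Nuak2 (-1.28 ± 0.17). Among all tested genes 4.84% were called higher and 9.34% lower in this comparison. The list's median log2 fold change was 0.033, 0.20 and 0.054 in the 3 comparisons. The median was 0.070, 0.097 and 0.16 for the members and 0.037, -0.015 and -0.0077 over all tested genes. Axl was not called against vehicle (0.046 ± 0.17, adjusted p = 0.878), and its counts with OSMI (11832, 12605 and 17504) overlapped those with vehicle (12879, 13475 and 13022). Nuak2, Crim1, Vgll4 and, in the following family, Wisp2 were named after their values had been seen.

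The CCN relatives of Ctgf and Cyr61 also went in both directions, and the test over all genes did not compare them with Ctgf or Cyr61. Wisp1, a known Wnt target, rose with rhWnt3a against vehicle (log2 fold change 1.48 ± 0.15, adjusted p = 0.00027, edgeR), fell when OSMI was added (-0.70 ± 0.15, adjusted p = 0.0282) and remained above vehicle (0.78 ± 0.15, adjusted p = 0.00657). Its counts were 487, 512 and 571 with vehicle, 1612, 1297 and 1535 with rhWnt3a, and 870, 842 and 1060 with OSMI, and no groups overlapped. Nov fell with rhWnt3a against vehicle (-1.38 ± 0.18, adjusted p = 0.00094) and was lowest with OSMI (-1.92 ± 0.18 against vehicle). Wisp2 rose with rhWnt3a (0.89 ± 0.19, adjusted p = 0.0148), and Wisp3 was not tested. The list's median log2 fold change, over 3 genes, was 0.89, -0.54 and 0.53. The shares of all tested genes called were 8.78%, 4.74% and 14.2%.

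The 12 genes of serum response factor, its cofactors and its actin cytoskeleton targets, which overlap in regulation with YAP targets, were all tested. Among all tested genes 5.86%, 3.05% and 9.34% were called lower in the 3 comparisons, and 2.92%, 1.69% and 4.84% higher. With rhWnt3a against vehicle 7 fell and none rose (median log2 fold change -1.14), DESeq2 called 8 lower, and 10 were lower and 0 higher at an unadjusted p under 0.05. The largest fall was that of Cnn1, a smooth-muscle calponin gene, from 52, 65 and 60 counts to 3, 5 and 2 (-4.13 ± 0.55, adjusted p = 0.00121, edgeR). Cnn1 passed the count filter through the vehicle libraries, where it was highest. With OSMI against rhWnt3a 2 rose, Vcl, which encodes the adhesion protein vinculin (1.20 ± 0.27, adjusted p = 0.0345), and Srf itself (0.97 ± 0.14, adjusted p = 0.00530), and the median was 0.46. With OSMI against vehicle Srf was higher (0.66 ± 0.14, adjusted p = 0.0102) and 7 genes were lower, Cnn1 again the most (-4.28 ± 0.56), with a median of -0.79. Several genes of this list are also known as markers of smooth muscle and myofibroblasts.

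**Figure D5:**
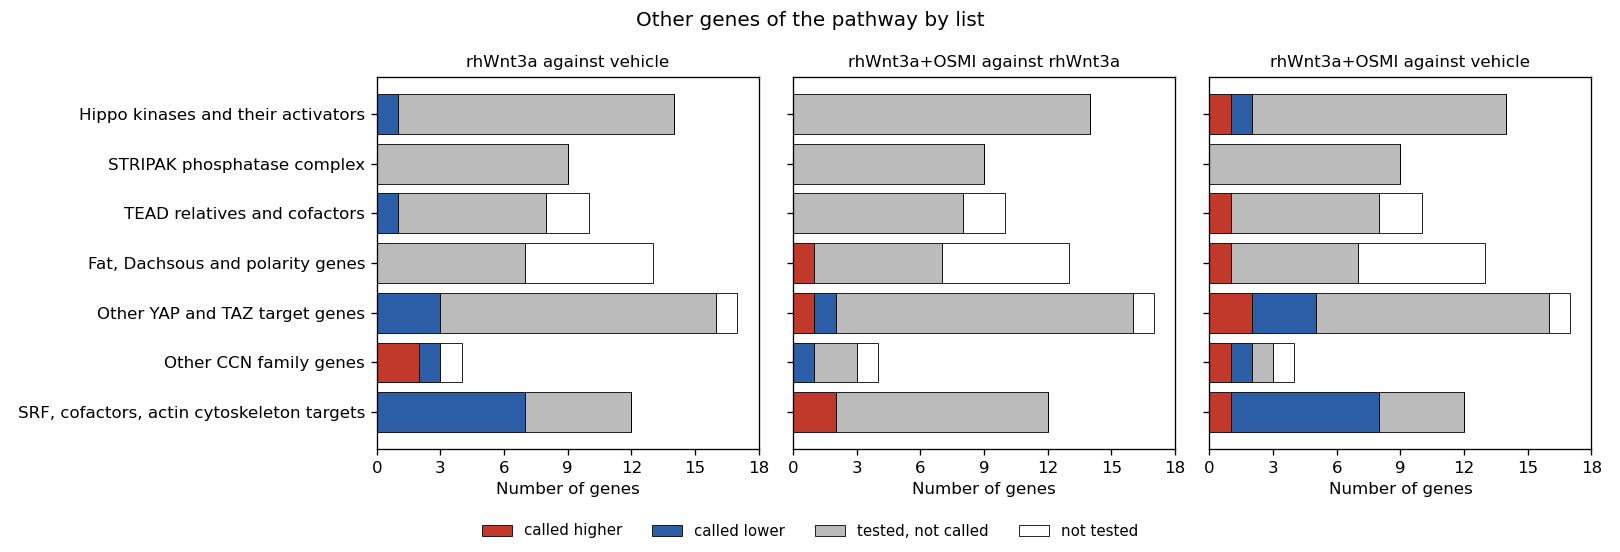
Number of genes (horizontal axes) of 7 lists around the pathway that were called higher (red), called lower (blue), tested but not called (grey) or not tested (white), in the 3 comparisons. Calls are few in the Hippo kinase, STRIPAK and polarity lists, where 8.78%, 4.74% and 14.2% of all tested genes were called. In both comparisons with vehicle 7 of the 12 SRF and actin genes are blue.

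For the 4 members called in any comparison, the gene most like it was sought by Pearson correlation of log2 CPM over the 9 libraries, a description in which the points share groups, depth and the variation within groups. Ankrd1 was most like Cd200 (r = 0.978), Ctgf like Adi1 (0.989), Cyr61 like Lbhd1 (0.974) and Tead2 like H2afy2 (0.969). Stromal marker levels also differed between groups. Among all tested genes 5.86%, 3.05% and 9.34% were called lower in the 3 comparisons. Of 7 tested stromal markers 2 fell with rhWnt3a against vehicle, 1 with OSMI against rhWnt3a and 3 with OSMI against vehicle. The largest of these falls was that of the chemokine gene Cxcl12 with rhWnt3a against vehicle (log2 fold change -2.31 ± 0.14, adjusted p = 1.6e-05, edgeR), and with OSMI against vehicle Cxcl12 and the adhesion gene Vcam1 were both at -1.89 ± 0.14. Their part in the members' values was not tested.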

How the data were processed

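RNA-seq of 9 ST2 libraries was used. Per the labels, the submitters' processing notes name CASAVA, fastp, HISAT2 2.0.5, featureCounts 1.5.0-p3 and mm10, and the strand setting is not given in the sources used here. The authors deposited whole-number read counts per gene without normalization, and FPKM values scaled by gene length and library total. The fold changes and p-values of the authors' own comparisons in the same table were not used.

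Counts were analysed with edgeR 4.0.16 in R 4.3.3: filterByExpr (minimum count 10, minimum total 15), TMM, glmQLFit on 3 groups with all 9 libraries and no covariate, and the two-sided glmQLFTest for each pair of groups. Benjamini-Hochberg adjustment ran over the 14004 tested genes in each comparison. The call rule required both an adjusted p below 0.05 and an absolute log2 fold change above 0.5. The common dispersion was 0.0452. FPKM values were used to compare levels between genes. Near-identical copies (at least 97% over 100 bases) were sought with BLAST 2.17.0 in GENCODE M21, in which Ankrd1 alone among the members has other start and end coordinates than the table. On simulated counts for rhWnt3a against vehicle (13741 genes in that step), 38% of 100 genes changed by 1 log2 unit and 99% of 100 changed by 2 were recovered. The changed genes all had higher mean counts than Ankrd1. The libraries were drawn without the direction of variation seen within the real groups. The recovery therefore does not cover Ankrd1 or that unequal spread.

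Named genes were the 10 members, the largest called rise and fall of each list and comparison, and the gene most correlated with each called member. The members and lists were chosen with earlier results of these data known. Alternatives were other size factors (RLE, upper quartile), DESeq2 1.42.0, other count filters, thresholds and sets of libraries, a replicate block, and each library left out in turn.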

Additional observations from a re-analysis of the deposited data

How the results depend on the processing

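The members called in each comparison (0 for rhWnt3a against vehicle, 2 for OSMI against rhWnt3a, 4 for OSMI against vehicle) became 2 without the library that lay apart in each group and 1 at an unadjusted p with the fold threshold kept for the first comparison. For OSMI against rhWnt3a they became 0 with only the 6 libraries compared, 1 with at least 10 counts in every library (a filter that removes Ankrd1), 1 at a log2 threshold of 1 and 0 with a replicate block. For OSMI against vehicle they became 1 at a log2 threshold of 1, 2 with the block and 7 with the side of the within-group direction as a term. Leaving out 1 library at a time gave 0 to 0, 0 to 2 and 1 to 6 members.

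The genes called over all tested genes (1230, 664 and 1986) became 2557, 1789 and 3351 without the libraries that lay apart, 2033, 4033 and 4670 with the side as a term, 796, 380 and 1118 at a log2 threshold of 1, 2155, 2271 and 3186 at an unadjusted p with the fold threshold kept, and 809, 233 and 1297 with the replicate block. For OSMI against rhWnt3a they became 345 with the 6 libraries compared, 1297 with DESeq2 and 1481 with no count filter. Leaving out 1 library gave 716 to 1506, 203 to 764 and 1218 to 2328. The cause was not tested. The alternatives with the side and without the libraries that lay apart were chosen after seeing the data, so their p-values and calls are descriptions. Replicate numbers did not pair the samples: the deviations of same-numbered libraries correlated from -0.49 to 0.44.

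Signs that changed belonged to members with no call. For rhWnt3a against vehicle, Wwtr1 was -0.013 with the 6 libraries and -0.0078 with no count filter, and Lats2 was 0.0089 with the block and 0.016 without the libraries that lay apart. Without those libraries Lats2 was -0.076 for OSMI against rhWnt3a and -0.061 against vehicle, Amotl2 -0.014 against vehicle and Yap1 -0.0011 against rhWnt3a. With the side as a term Wwtr1 was -0.0061 for OSMI against rhWnt3a. Leaving out 1 library at a time, the values ran from -0.11 to 0.014 for Amotl2, from -0.099 to 0.12 for Lats2, from -0.043 to 0.37 for Tead1 and from -0.040 to 0.12 for Wwtr1 for rhWnt3a against vehicle, from -0.14 to 0.23 for Lats2 and from -0.0032 to 0.068 for Wwtr1 for OSMI against rhWnt3a, and from -0.15 to 0.22 for Lats2 for OSMI against vehicle. With a dispersion near 0.0452 and 3 libraries a group, a change of 1 log2 unit or less can be missed at this depth and spread.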
